A study of Mus musculus with 9 samples.

Results

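Bone marrow cells from a mouse model of AML1-ETO9a leukaemia that had been sorted as CD43++ckit+ were compared with cells of the same model sorted as CD43+ckit-, across all genes. The members were the libraries whose labels name these populations, 3 CD43++ckit+ and 3 CD43+ckit- libraries out of 9 in the study; the other 3, from CD43-ckit- cells, are not compared here but entered the low-count filter, the TMM scaling, the estimate of spread and the average abundance of each gene. Through that filter 498 of the 12573 genes were tested that would not have passed on the 6 compared libraries, and 34 of these were called. Every population carried the AML1-ETO9a leukaemia and came from C57BL/6 mice given as 6-8 weeks old, with no treatment named, so neither population is a healthy control. The labels do not say how the fusion gene was introduced, how many mice were used, whether mice were pooled, or which normal host cells remained in the sort gates. Separate mice are not stated for the 3 libraries of either population, so the p-values describe spread among these samples only, and that spread may be technical.

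AML1-ETO9a is a shortened form of the fusion of RUNX1 (AML1), the DNA-binding subunit of core binding factor, with the co-repressor RUNX1T1 (ETO). c-Kit, encoded by Kit, is the receptor tyrosine kinase for stem cell factor; it is carried by haematopoietic stem cells, progenitors and mast cells and is lost as red cell precursors mature. CD43, encoded by Spn, is a sialomucin, a surface protein densely covered with sialic acid-capped O-linked sugar chains, found on most leukocytes and on early progenitors. The comparison asks which transcripts differ between leukaemic cells that carry c-Kit and a high level of CD43 and leukaemic cells that lack c-Kit and keep a lower level of CD43.

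The CD43++ckit+ libraries were 28530150 to 31781746 counts deep, and the CD43+ckit- libraries 27378734 to 28214639. Values are CPM, counts relative to library size, scaled by TMM, which sets the typical gene equal between libraries, and are given for libraries 1, 2 and 3 in that order. Log2 fold changes are CD43++ckit+ minus CD43+ckit-, with standard errors (SE) and Benjamini-Hochberg adjusted p-values from edgeR's quasi-likelihood test over all tested genes, and a gene was called, or is said to have risen or fallen, at an adjusted p under 0.05. With library totals in place of TMM the log2 fold change of the median gene shifted up by 0.265.

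The libraries of CD43++ckit+ were not alike. Library 3 correlated with libraries 1 and 2 at r = 0.953 and 0.933 on log2 CPM, against 0.992 between libraries 1 and 2. On the first principal component of the 6 libraries, which held 63% of the variance, libraries 1 and 2 stood at -72.9 and -88.8, library 3 at 0.25, and the CD43+ckit- libraries at 41.8 to 65.6. Library 1 of CD43+ckit- stood apart on the second component (28.8% of the variance) at -63.3, opposite library 3 of CD43++ckit+ at 74.1. Neutrophil maturation genes differed along the same lines: their summed level was 565, 246 and 7401 CPM in CD43++ckit+ and 1014, 4878 and 3924 CPM in CD43+ckit-. Where a result changed when one of these libraries was left out, the value without it is given.

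**Figure D1:**
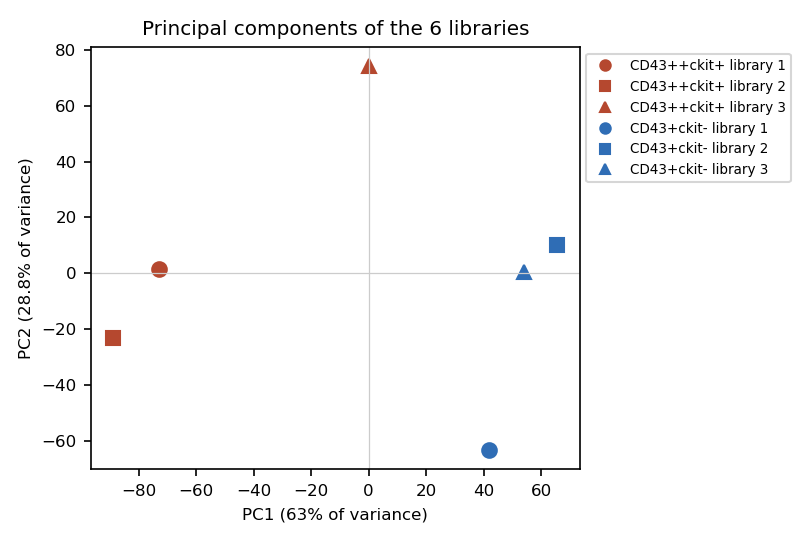
First and second principal component of log2 CPM over the tested genes, for the 3 CD43++ckit+ (red) and 3 CD43+ckit- (blue) libraries, with the marker shape giving the library number. CD43++ckit+ library 3 lies at 0.25 on the first component, between the other CD43++ckit+ libraries (-88.8 and -72.9) and CD43+ckit- (41.8 to 65.6).

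Transcripts of both sorting markers followed the labels in every library. Kit stood at 176, 171 and 146 CPM in CD43++ckit+ and 7.80, 18.4 and 21.03 CPM in CD43+ckit- (log2 fold change 3.38 ± 0.41 SE, adjusted p = 0.000569). Spn stood at 555, 520.3 and 432 CPM in CD43++ckit+ and 137, 232 and 213 CPM in CD43+ckit- (log2 fold change 1.37 ± 0.34 SE, adjusted p = 0.0109). The libraries did not overlap for either gene, and the difference was 10.4-fold for Kit and 2.59-fold for Spn. Since the cells were sorted on these proteins, the values check the labels and are not a finding. In sorted bulk RNA, fewer cells of a type and less RNA per cell cannot be told apart, which holds for each result that follows.

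The test called 5005 of 12573 genes (39.8%). In CD43++ckit+ 2472 (19.7%) were higher and 2533 (20.1%) lower. Higher calls made up 49.4% of calls with TMM scaling and 67% with library totals. Among the called genes, 742 differed at least 4-fold, 362 higher and 380 lower. The 3 CD43++ckit+ libraries lay entirely outside the 3 CD43+ckit- libraries for 6979 genes (55.5%), above for 27% and below for 28.5%. Binned by the average log2 CPM over the 6 compared libraries, 209 of 1501 genes were higher and 627 lower at 7 and over. At 3 to 5, 881 of 3144 were higher and 474 lower. The shares of 19.7% and 20.1% are the background against which each count over a gene list is read. They belong to the fit to all 9 libraries. Counts over a list in an alternative, such as one with a library left out, are given without the share of all genes in that alternative. They are not matched for abundance, and lower calls were more frequent among abundant genes. A share over a list of abundant genes is therefore not set against genes of like abundance.

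Among genes whose average log2 CPM over the 9 libraries was at least 4, the largest increase was in Ms4a2. This gene, which encodes the IgE receptor's beta chain, stood at 392, 351 and 139.8 CPM in CD43++ckit+ and 24.9, 22.9 and 27.1 CPM in CD43+ckit- (log2 fold change 3.56 ± 0.41 SE, adjusted p = 0.000469). The others of the 12 largest rose between 2.80 and 3.46 on the log2 scale: the argininosuccinate synthase gene Ass1 (3.46), Kit, the guanine nucleotide exchange factor gene Dock10 (3.37), the transporter genes Slc45a3 (3.36) and Slc22a3 (3.26), C2cd4a (3.34), the coronin gene Coro2a (3.23), Spred1 (3.22), Cbfb (3.06), and the ribosome assembly genes Rrp1b (2.95) and Mdn1 (2.80). The 12 largest decreases were larger in size. Several encode red cell proteins: the theta globin gene Hbq1b (-4.96), Alas2 (-4.84), the membrane skeleton protein gene Dmtn (-4.77) and the anion exchanger gene Slc4a1 (-4.51). The others were Btnl10 (-5.20), Chga, which encodes the secretory granule protein chromogranin A (-4.81), the deglycating kinase gene Fn3k (-4.76), Rab3il1 (-4.69), the phosphatase gene Dusp8 (-4.55), Ypel4 (-4.44), Smtnl1 (-4.09) and Prr15l. Of these, Dusp8, Smtnl1 and Prr15l reached the abundance limit only through the CD43-ckit- libraries, with averages of 3.32, 2.51 and 0.79 over the 6 compared libraries. Prr15l held only 5, 2 and 19 counts in CD43++ckit+ against 48, 150 and 92 in CD43+ckit-, and no fold is given for it. Btnl10 held 8, 4 and 109 counts in CD43++ckit+ against 1287, 953 and 885, so most of its counts in CD43++ckit+ came from library 3. Without CD43++ckit+ library 3 the decreases other than Btnl10 and Prr15l were larger, between -5.18 for Smtnl1 and -6.19 for Dmtn, with that of Smtnl1 resting on 15 and 7 counts in CD43++ckit+. These 24 genes kept their call in each of the 17 processing alternatives fixed for this comparison.

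**Figure D2:**
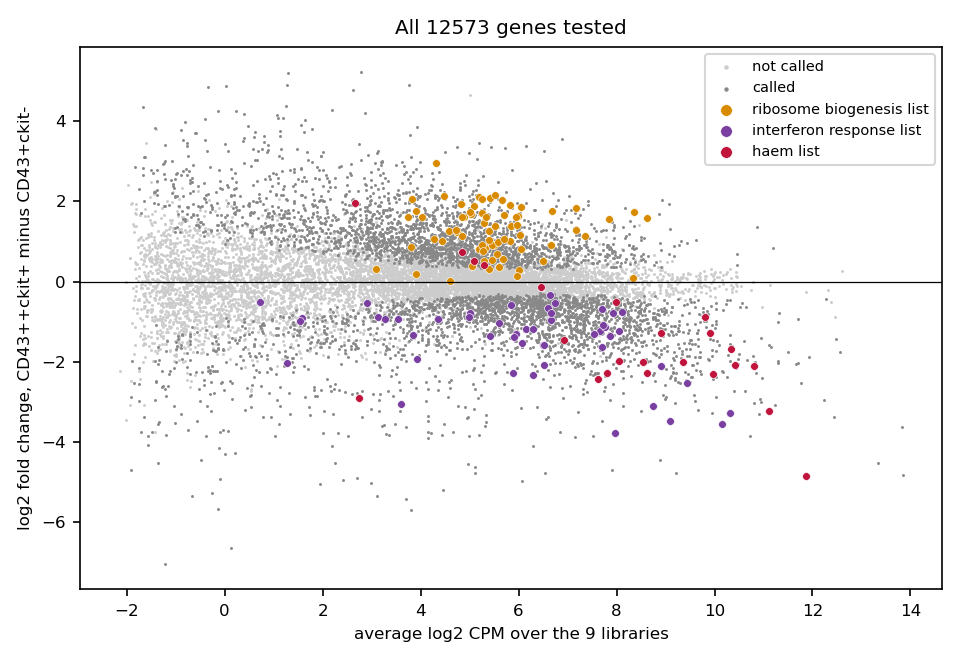
Each point is 1 of the 12573 tested genes, with average log2 CPM over the 9 libraries on the horizontal axis and the log2 fold change of CD43++ckit+ minus CD43+ckit- on the vertical axis. Ribosome biogenesis genes (orange) lie above 0, with 60 of 70 called higher, and interferon response (purple) and haem genes (red) lie mostly below it, with 38 of 49 and 17 of 23 called lower.

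**Figure D3:**
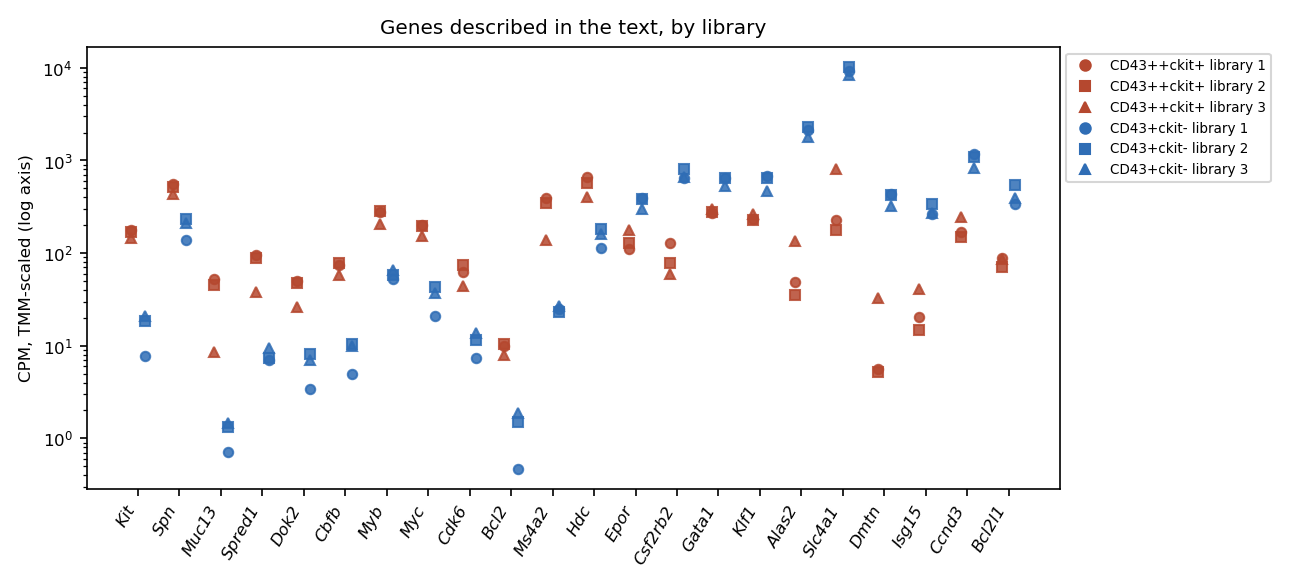
TMM-scaled CPM on a log axis of 22 genes in the 3 CD43++ckit+ (red) and 3 CD43+ckit- (blue) libraries, with the marker shape giving the library number. The colours do not overlap for any gene, and CD43++ckit+ library 3 (red triangle) lies nearest to CD43+ckit- for genes such as Muc13, Dmtn and Slc4a1.

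More components and regulators of KIT signalling rose than fell. Of 38 genes listed, 37 passed the low-count filter, and of the 36 other than Kit itself, 17 rose and 4 fell (58.3% called, against 39.8% of all genes; median 0.58, against 0.013). Inhibitors of the RAS and MAP kinase branch were among the risers: Spred1 stood at 95.7, 89.6 and 38.4 CPM in CD43++ckit+ and 7.09, 7.38 and 9.55 CPM in CD43+ckit- (log2 fold change 3.22 ± 0.33 SE, adjusted p = 0.000342). Its relatives Spred2 (1.35) and Spry2 (2.25) also rose, and the 3 have the common role of damping receptor tyrosine kinase output. Of the adaptors that restrain the same pathway, Dok1 fell, at 49.7, 49.3 and 58.8 CPM in CD43++ckit+ and 172, 178 and 145 CPM in CD43+ckit- (log2 fold change -1.65 ± 0.15 SE, adjusted p = 0.000326), and Dok2, named after its values were seen, rose, at 49.95, 47.8 and 25.99 CPM in CD43++ckit+ and 3.43, 8.08 and 7.05 CPM in CD43+ckit- (log2 fold change 2.74 ± 0.37 SE, adjusted p = 0.000746). The adaptor gene Grb2, which joins receptors to RAS activation and was singled out after its values were seen, rose by 0.59 (adjusted p = 0.00516). Stat5a and Stat5b transmit signals of KIT and of the erythropoietin receptor. Stat5a, named after its values were seen, rose, at 223, 205 and 171 CPM in CD43++ckit+ and 59.2, 85.3 and 82.05 CPM in CD43+ckit- (log2 fold change 1.40 ± 0.26 SE, adjusted p = 0.00316). Stat5b was not called, at 298, 291 and 266 and 231, 281 and 263 CPM (log2 fold change 0.14 ± 0.12 SE, adjusted p = 0.386), and the ranges overlapped. With Kit included, 15 to 24 members rose over the alternatives. The number that fell, 4, was 1 with library totals and 2 without CD43++ckit+ library 1 or without CD43+ckit- library 1 or 3.

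CD43 carries its sugars through a chain of O-glycosyltransferases, and genes of that chain moved in both directions. Of 38 tested genes other than Spn for sialomucins and O-glycan synthesis, 10 rose and 7 fell, and the 44.7% called was near the 39.8% of all genes. Genes that fell included St3gal2, at 136, 120.3 and 100.5 CPM in CD43++ckit+ and 497, 556 and 454 CPM in CD43+ckit- (log2 fold change -2.08 ± 0.23 SE, adjusted p = 0.000412), and St3gal1 (-1.58), both of which add the terminal sialic acid to the core 1 sugar. Cmas, which makes the activated form of sialic acid (-1.79), and Gcnt1, which branches core 1 to core 2 (-1.33), fell too. Members that rose included St6gal1, a sialyltransferase that caps N-linked chains (log2 fold change 2.65 ± 0.43 SE, adjusted p = 0.00153), and Muc13, a transmembrane mucin, at 52.5, 45.5 and 8.51 CPM in CD43++ckit+ and 0.706, 1.34 and 1.47 CPM in CD43+ckit- (log2 fold change 4.91 ± 0.69 SE, adjusted p = 0.000935). Muc13 was far lower in library 3 of CD43++ckit+ than in libraries 1 and 2, though above every CD43+ckit- library. The members that fell numbered 11 in place of 7 without CD43++ckit+ library 3.

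Receptors for growth factors and cytokines moved both ways. Of 34 tested, 6 rose (17.6%) and 9 fell (26.5%), near the shares over all genes (19.7% higher and 20.1% lower). Epor, the erythropoietin receptor that carries red cell precursors past the c-Kit stage, stood at 112, 129 and 179 CPM in CD43++ckit+ and 397, 388 and 303 CPM in CD43+ckit- (log2 fold change -1.37 ± 0.21 SE, adjusted p = 0.00122), lower in every CD43++ckit+ library than in any CD43+ckit- library. Csf2rb2, a beta chain of the IL-3 receptor with a close copy that can share reads, stood at 128, 78.6 and 58.8 CPM in CD43++ckit+ and 647, 806 and 665 CPM in CD43+ckit- (log2 fold change -2.999 ± 0.35 SE, adjusted p = 0.000486). The IL-4 receptor chain gene Il4ra (-1.34) and the interferon gamma receptor chain gene Ifngr2 (-1.12) fell. Tgfbr2, the type II receptor for TGF-beta, rose, at 42.6, 39.6 and 28.3 CPM in CD43++ckit+ and 6.12, 12.7 and 10.5 CPM in CD43+ckit- (log2 fold change 1.91 ± 0.27 SE, adjusted p = 0.000872). In all, 18 members fell in place of 9 without CD43++ckit+ library 3.

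Members of the core binding factor and ETO group moved both ways. Cbfb, the subunit that stabilises RUNX proteins on DNA, stood at 74.7, 77.99 and 58.4 CPM in CD43++ckit+ and 4.91, 10.4 and 10.03 CPM in CD43+ckit- (log2 fold change 3.06 ± 0.32 SE, adjusted p = 0.00039), and Runx3, another DNA-binding subunit, at 26.9, 25.3 and 22.1 CPM in CD43++ckit+ and 2.49, 4.63 and 4.04 CPM in CD43+ckit- (log2 fold change 2.73 ± 0.36 SE, adjusted p = 0.000672). Runx1 and Runx1t1, the mouse genes of the fusion partners, stood at 413, 348 and 173 CPM in CD43++ckit+ and 171, 158 and 164 CPM in CD43+ckit- and at 69.4, 57.7 and 48.6 CPM in CD43++ckit+ and 84.2, 93.6 and 92.1 CPM in CD43+ckit-. Reads of the fusion and of the endogenous genes are not told apart in gene counts. Runx1 rose (log2 fold change 0.92 ± 0.29 SE, adjusted p = 0.0312) but lost its call without CD43++ckit+ library 1 or 2 or any CD43+ckit- library, and Runx1t1 fell (log2 fold change -0.62 ± 0.20 SE, adjusted p = 0.032) but lost it with library totals, without CD43++ckit+ library 2 or 3 and without any CD43+ckit- library. Hdac2, a histone deacetylase of the co-repressor complexes that ETO recruits, rose by 0.93 and the transcription elongation inhibitor gene Hexim1 fell by 0.81. Of 23 tested, 5 rose (21.7%) and 8 fell (34.8%), beside 19.7% and 20.1% of all genes, but 8 rose and 3 fell with library totals. Without CD43++ckit+ library 1 or 2 or CD43+ckit- library 2 the number that fell was 3, and it was 4 without CD43+ckit- library 1 and 5 without library 3, so the balance of this list depended on the scaling and on single libraries. The number that rose was 3 without CD43+ckit- library 1.

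Among transcription factors of stem cells and progenitors more rose than fell, 9 of 26 tested rising (34.6%) and 3 falling (11.5%), beside shares of 19.7% higher and 20.1% lower over all genes (median 0.77). Myb, which keeps progenitors proliferating, stood at 281, 288 and 205 CPM in CD43++ckit+ and 52.5, 57.3 and 66.1 CPM in CD43+ckit- (log2 fold change 2.14 ± 0.18 SE, adjusted p = 0.000292). Fli1, an ETS factor of early haematopoiesis, stood at 50.9, 46.4 and 36.8 CPM in CD43++ckit+ and 8.24, 11.9 and 12.1 CPM in CD43+ckit- (log2 fold change 2.05 ± 0.23 SE, adjusted p = 0.000415). The homeobox gene Hhex (1.96) and the Polycomb gene Bmi1 (1.67) rose as well. Lmo2, the bridging protein of the erythroid SCL complex, fell, at 248, 265 and 272 CPM in CD43++ckit+ and 832, 678 and 649.7 CPM in CD43+ckit- (log2 fold change -1.46 ± 0.22 SE, adjusted p = 0.00119). Hoxa9 and Meis1, homeobox genes of leukaemic self-renewal, were near 0 in both populations: Hoxa9 stood at 0.205, 0.0547 and 0.268 CPM against 0, 0.168 and 0.1603 CPM and Meis1 at 0.205, 0.0547 and 0.402 CPM against 0.101, 0.0335 and 0.224 CPM, too low for a difference to be seen at this depth. Members that fell numbered 6 without CD43++ckit+ library 3.

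Red cell genes fell as a group in CD43++ckit+. During red cell formation GATA1, its cofactor FOG1 (Zfpm1), TAL1 and KLF1 switch on haem synthesis, iron uptake, globins and the membrane skeleton, and organelles and most other proteins are then removed by mitophagy and ubiquitin conjugation. Of 26 tested erythroid transcription factors, 18 fell (69.2%, beside 20.1% of all genes) and 1 rose (median -1.05). Gata1 stood at 270.2, 279 and 302 CPM in CD43++ckit+ and 652, 642 and 535 CPM in CD43+ckit- (log2 fold change -1.10 ± 0.17 SE, adjusted p = 0.00114) and Klf1 at 234, 227 and 262 CPM in CD43++ckit+ and 677, 652 and 467 CPM in CD43+ckit- (log2 fold change -1.31 ± 0.19 SE, adjusted p = 0.000963). Each CD43++ckit+ library held a lower level than any CD43+ckit- library for both genes. Zfpm1 (-1.52), Tal1 (-0.998), Nfe2, the p45 subunit of the globin locus activator (-1.43), and its small MAF partner gene Mafg (-1.70) fell. Larger decreases were found for E2f2, an E2F of terminal red cell divisions (log2 fold change -2.72 ± 0.28 SE, adjusted p = 0.000342), the SOX factor gene Sox6 (-2.31) and Foxo3, which drives late erythroid genes (-1.84). The member that rose was Bcl11a, a repressor of globin genes (0.93, named after its value was seen). In the alternatives 16 to 18 members fell.

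Haem is made from glycine and succinyl-CoA in a chain of steps shared between mitochondria and cytosol, and most genes of this chain were lower in CD43++ckit+. Of 23 tested, 17 fell (73.9%, beside 20.1% of all genes) and 2 rose (median -1.97). Alas2, the erythroid enzyme of the first step, stood at 49.3, 35.4 and 134 CPM in CD43++ckit+ and 2151, 2290 and 1804 CPM in CD43+ckit- (log2 fold change -4.84 ± 0.51 SE, adjusted p = 0.000387), 28.6-fold lower. Library 3 of CD43++ckit+ held the highest level of that population but lay far below each CD43+ckit- library, and the value without it was -5.62. Slc25a37, mitoferrin 1, which brings iron into mitochondria, stood at 296, 279 and 337 CPM in CD43++ckit+ and 3280, 2561 and 2640 CPM in CD43+ckit- (log2 fold change -3.22 ± 0.31 SE, adjusted p = 0.000326). Urod of the middle steps fell (-2.01), as did Fech, which inserts the iron (-2.07), the porphyrin transporter gene Abcb6 (-1.45) and Fam210b (-2.31). Alas1, the housekeeping counterpart of Alas2, was not called: it stood at 12.8, 11.2 and 46.9 CPM in CD43++ckit+ and 9.88, 17.2 and 15.5 CPM in CD43+ckit- (log2 fold change 0.74 ± 0.56 SE, adjusted p = 0.342).

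GATA1 binds the word GATA preceded by A or T and followed by A or G. In the 300-base promoters of the RefSeq table (GRCm38.p6, 250 bases before to 50 after the start) this word occurred on either strand in 33% of 27025 genes, and in 22.6% of the 9992 tested genes with a promoter there. Promoters were matched for 17 of 23 haem and 23 of 32 red cell membrane genes, under 80% of each. The word occurred in 3 of the 17 matched haem genes and in 10 of the 23 matched membrane genes. With the other members unmatched, no share over these lists is set against that of all genes. To show what such words look like beside genes that fell, 100-base windows follow for 4 members that have one, chosen after their values were seen, each read along the strand of the gene, with the word in capitals, also where it lies on the opposite strand and is read as its complement. Alas2 and Cpox encode haem enzymes, and Rhd and Kel blood group proteins. A match is a description of the letters and not a shown binding site.
Alas2, chrX:150547284-150547383, plus strand: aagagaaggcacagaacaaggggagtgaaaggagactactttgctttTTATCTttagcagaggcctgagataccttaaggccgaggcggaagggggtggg
Cpox, chr16:58670075-58670174, plus strand: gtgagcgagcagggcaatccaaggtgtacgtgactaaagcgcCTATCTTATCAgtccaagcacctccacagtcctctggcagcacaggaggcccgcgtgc
Rhd, chr4:134864436-134864535, plus strand: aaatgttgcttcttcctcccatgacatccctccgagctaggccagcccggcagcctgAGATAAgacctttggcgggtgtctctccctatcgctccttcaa
Kel, chr6:41704326-41704425, minus strand: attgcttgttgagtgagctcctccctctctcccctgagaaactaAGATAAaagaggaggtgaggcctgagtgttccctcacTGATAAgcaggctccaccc
The 4 genes differed by -4.84, -0.87, -2.25 and -1.44 on the log2 scale, in that order, and each was called lower.

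Of 21 tested genes for iron handling 9 fell (42.9%, beside 20.1% of all genes) and 2 rose (median -0.31), 4 rising with library totals and 1 without CD43+ckit- library 1 or 2. Tfrc, the transferrin receptor that takes up iron for haem, stood at 173, 202 and 138 CPM in CD43++ckit+ and 986, 435 and 552 CPM in CD43+ckit- (log2 fold change -1.94 ± 0.36 SE, adjusted p = 0.00306). The ferritin chain genes Ftl1 (-1.76) and Fth1 (-0.92), which store iron, fell, as did Aco1, the iron-sensing RNA-binding protein IRP1 (-1.24), and the iron-sulphur cluster genes Glrx5 (-1.59) and Iscu (-1.51).

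Transcripts for the membrane, skeleton and surface of red cells, listed with enzyme genes such as Bpgm and Car1, fell almost without exception. Of 32 tested genes 31 fell, 30 or 31 in each alternative (median -1.75), beside 20.1% of all tested genes. Slc4a1, the band 3 anion exchanger, stood at 230.2, 178 and 812 CPM in CD43++ckit+ and 9199, 10200 and 8425 CPM in CD43+ckit- (log2 fold change -4.51 ± 0.58 SE, adjusted p = 0.000654; -5.50 without CD43++ckit+ library 3). Epb4.1, which ties spectrin to actin, stood at 315, 317 and 335 CPM in CD43++ckit+ and 1050, 1289 and 1220 CPM in CD43+ckit- (log2 fold change -1.88 ± 0.21 SE, adjusted p = 0.000424). Both were expressed in CD43++ckit+ at a reduced level and were not absent. Ackr1, the Duffy antigen (-3.18), Bpgm, the enzyme that makes 2,3-bisphosphoglycerate (-3.07), the water channel gene Aqp1 (-2.89), Tspan33 (-2.30) and Rhd (-2.25) fell as well. The member that rose was Car1, a carbonic anhydrase (1.03, adjusted p = 0.0188; named after its value was seen), and its call was lost without CD43++ckit+ library 1 or 2 or CD43+ckit- library 1 or 2.

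Of 14 listed globin genes with a row in the table, 3 passed the low-count filter and all 3 were called lower. Hbq1b, a theta globin gene, stood at 0.717, 0.383 and 1.85 CPM in CD43++ckit+ and 30.1, 35.1 and 29.1 CPM in CD43+ckit- (log2 fold change -4.96 ± 0.47 SE, adjusted p = 0.000326; -5.82 without CD43++ckit+ library 3). Hbq1a, its close copy, with which reads can be shared, stood at 0.0768, 0.0547 and 0.0447 CPM in CD43++ckit+ and 0.437, 1.07 and 1.12 CPM in CD43+ckit- (adjusted p = 0.000423), and the embryonic gene Hbb-bh1 at 0.128, 0.0273 and 0.134 CPM in CD43++ckit+ and 0.572, 2.25 and 1.603 CPM in CD43+ckit- (adjusted p = 0.00144). Both had only a few counts in CD43++ckit+, and no fold is given for them. Hbb-bh2, outside the list and named after its values were seen, also fell, at 0.4096, 0.219 and 0.715 CPM in CD43++ckit+ and 6.15, 5.60 and 4.81 CPM in CD43+ckit- (log2 fold change -3.60 ± 0.48 SE, adjusted p = 0.000748). The adult beta globin rows were listed at 0 in every library and the adult alpha globin rows held no more than a few counts, so the level of adult globin is unknown.

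Genes for the removal of organelles and proteins in maturing red cells fell in 37 of 42 tested members (88.1%, beside 20.1% of all genes). Among these members 1 rose, the median was -1.65, and 37 to 39 fell in the alternatives. Ube2o, the ubiquitin enzyme that marks surplus proteins in reticulocytes, stood at 132, 111 and 165 CPM in CD43++ckit+ and 818, 1342 and 969 CPM in CD43+ckit- (log2 fold change -2.94 ± 0.26 SE, adjusted p = 0.000319). The ubiquitin ligase genes Mkrn1 (-2.53) and Trim58 (-2.30), and the autophagy gene Calcoco1 (-2.67) fell. Bnip3l, the NIX receptor for mitophagy, fell less, at 202, 219 and 156 CPM in CD43++ckit+ and 509, 349 and 379 CPM in CD43+ckit- (log2 fold change -1.10 ± 0.24 SE, adjusted p = 0.00654). Across these erythroid groups no library of CD43++ckit+ had a summed level near CD43+ckit-: the red cell membrane members summed to 9726, 9346 and 9069 against 34800, 34170 and 30700 CPM, and the haem members to 3970, 3850 and 4058 against 17230, 15870 and 14550 CPM. CD43++ckit+ library 3 did not stand apart from libraries 1 and 2 in these sums. It did for single genes such as Slc4a1 (811.7 against 230.2 and 178 CPM) and Alas2 (134 against 49.31 and 35.37 CPM).

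Of 34 listed mast cell and basophil genes, 28 passed the low-count filter. Among these 12 rose (42.9%, beside 19.7% of all genes) and 1 fell (3.57%, beside 20.1%), with a median of 0.81. In the alternatives 9 to 13 rose. Tpsab1, Mcpt4, Mrgprb2, Hpgds, Il6 and Il13 did not pass the filter, with no more than 16 counts in any library. Mast cells and basophils carry the high-affinity IgE receptor, store histamine and proteases, and mast cells depend on KIT. Cpa3, the carboxypeptidase of mast cell granules, stood at 2.18, 1.18 and 1.29 CPM in CD43++ckit+ and 0.0336, 0.134 and 0.224 CPM in CD43+ckit- (adjusted p = 0.0028); with 1, 4 and 7 counts in CD43+ckit-, no fold is given. Hdc, which makes histamine, stood at 670.1, 567 and 399.8 CPM in CD43++ckit+ and 114, 181 and 162 CPM in CD43+ckit- (log2 fold change 1.84 ± 0.31 SE, adjusted p = 0.00186), and Tph1, which starts serotonin synthesis, at 50.4, 43.5 and 9.802 CPM in CD43++ckit+ and 3.03, 2.58 and 2.66 CPM in CD43+ckit- (log2 fold change 3.65 ± 0.53 SE, adjusted p = 0.000996). CD43++ckit+ lay above CD43+ckit- in every library for the 3 genes. Fcer1a, the alpha chain of the IgE receptor, had low levels of 6.66, 4.57 and 1.03 CPM in CD43++ckit+ and 0.202, 0.503 and 0.673 CPM in CD43+ckit- (log2 fold change 3.14 ± 0.79 SE, adjusted p = 0.0122) and kept its call in 15 of the 16 alternatives that tested it. Srgn, the proteoglycan core that packs granules, rose by 1.11 and Itga2b, the integrin shared with megakaryocytes, fell by 1.59. The summed level of the list was 3907, 3426 and 2180 CPM in CD43++ckit+ and 1597, 1579 and 1550 CPM in CD43+ckit-, lowest of the CD43++ckit+ libraries in library 3. Without that library 4 members fell in place of 1.

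Markers of other blood cells varied widely between single libraries. S100a8, a calprotectin subunit of neutrophils, stood at 83.97, 18.96 and 1192 CPM in CD43++ckit+ and 89.6, 774 and 688 CPM in CD43+ckit- (log2 fold change -0.26 ± 1.37 SE, adjusted p = 0.905). CD43++ckit+ library 3 was the highest of the 6 and library 2 the lowest. Mpo, the myeloperoxidase of primary granules, stood at 37.8, 11.1 and 605 against 60.2, 114 and 73.4 CPM (log2 fold change 1.40 ± 1.17 SE, adjusted p = 0.388), again highest in that library. Of 34 tested neutrophil maturation genes, 0 rose and 1 fell (2.94%, beside 20.1% of all genes) in edgeR's test. The numbers were also 0 and 1 at an unadjusted p under 0.05 and in DESeq2. The member that fell was Mxd1, described with the MYC network. Of 15 primary granule genes 2 rose (13.3%, below the 19.7% of all genes) and 0 fell (2 and 0 unadjusted and in DESeq2). The risers were Cst7, a cysteine protease inhibitor (2.28), and Igfbp4 (2.43).

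Without CD43++ckit+ library 3, libraries 1 and 2 alone lay below CD43+ckit- for many of these genes: 26 neutrophil, 8 primary granule, 6 of 9 eosinophil, 12 of 27 myeloid transcription factor, 12 of 21 dendritic cell and MHC class II, 14 of 22 B lineage, 11 of 24 T and NK cell and 8 of 34 monocyte and macrophage genes were then called lower. With it, the lower calls in edgeR's test in the last 6 of those lists were 0, 2, 2, 0, 2 and 2 (0, 4, 3, 2, 4 and 2 at an unadjusted p under 0.05, and 0, 4, 3, 2, 2 and 2 in DESeq2). With the library, 0% to 9.52% of each of those 6 lists was called lower, beside 20.1% of all genes. Without the library 12795 genes were tested, and higher calls made up 49.6% of all calls. The list counts without it are not set against the share of all genes called lower in that fit. S100a8 differed by -3.33 without the library (adjusted p = 0.0354) and Mpo by -1.75 (adjusted p = 0.0197). Summed levels of the B lineage list were 17.9, 7.74 and 61.8 CPM in CD43++ckit+ and 33.6, 98.3 and 68.6 CPM in CD43+ckit-, and of the monocyte and macrophage list 516, 419 and 1399 and 1663, 2196 and 1836 CPM. The stroma and endothelium list summed to 117, 96.7 and 156 and 37.05, 129 and 109 CPM, lowest in CD43+ckit- library 1. Most of each sum came from Vim (102, 91.7 and 97.3 and 13.1, 51.4 and 43.05 CPM) and Fn1 (10.8, 2.54 and 44.8 and 6.52, 64.9 and 52.9 CPM). Cdh5, Lepr, Lum and Dcn did not pass the low-count filter, so the sum is not a measure of stromal cells. The part of cells of these types in the other results was not tested. Without library 3, 30 of 32 red cell membrane genes and 41 of 49 interferon genes fell and 62 of 70 ribosome biogenesis genes rose.

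A few genes of these lists differed whichever library was left out. Lgmn, the lysosomal protease legumain, stood at 4.15, 2.298 and 10.6 CPM in CD43++ckit+ and 29.5, 77.2 and 52.3 CPM in CD43+ckit- (log2 fold change -3.21 ± 0.56 SE, adjusted p = 0.0025; -4.04 without CD43++ckit+ library 3). Pf4, platelet factor 4, stood at 1.43, 0.602 and 1.45 CPM in CD43++ckit+ and 8.78, 5.06 and 4.904 CPM in CD43+ckit- (log2 fold change -2.42 ± 0.46 SE, adjusted p = 0.00321), and Gp9, a platelet glycoprotein, fell by 2.68, while the thrombin receptor gene F2r rose by 1.499. Of 17 megakaryocyte and platelet genes 2 rose (11.8%) and 4 fell (23.5%), beside 19.7% and 20.1% of all genes. Without CD43++ckit+ library 3, 8 fell, and 1 rose without CD43++ckit+ library 1 or 2 or CD43+ckit- library 1. Per2, a clock factor in the myeloid list, rose by 2.47. Lck, the T cell kinase, fell by 2.50 and Lat, its membrane adaptor, rose by 2.52.

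**Figure D4:**
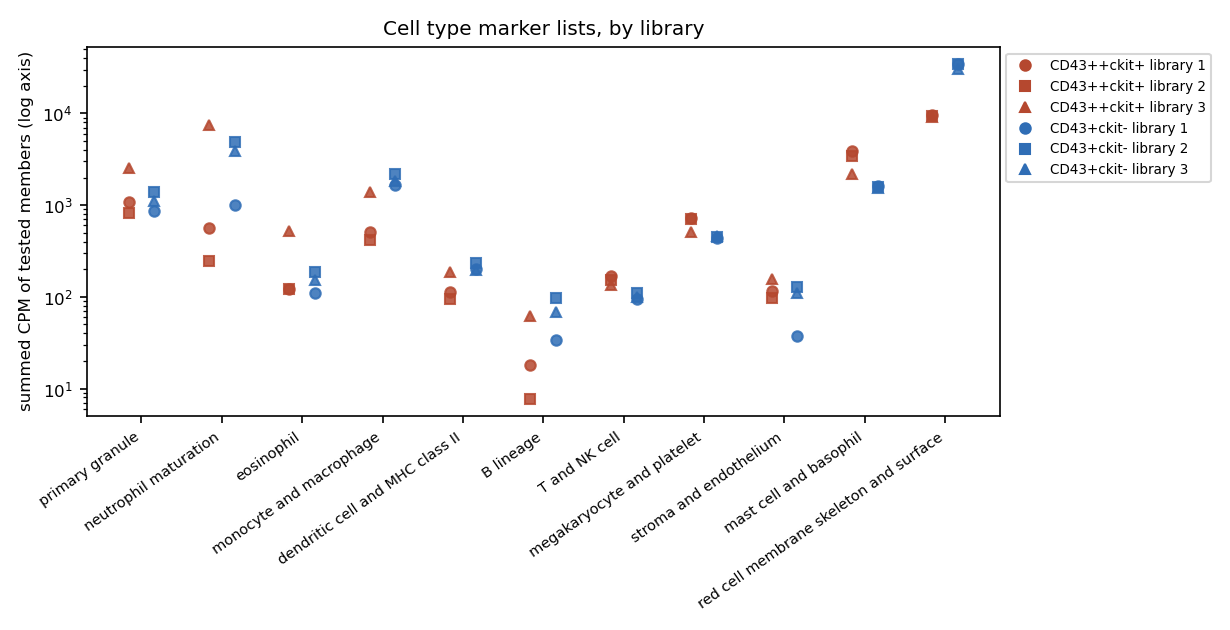
Summed TMM-scaled CPM (log axis) of the tested members of 11 cell type lists in each library, with CD43++ckit+ in red, CD43+ckit- in blue and the marker shape giving the library number. The populations separate for the mast cell and red cell lists, while CD43++ckit+ library 3 (red triangle) lies above libraries 1 and 2 for neutrophil genes (7401 against 565 and 246 CPM).

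Interferon response genes were lower in CD43++ckit+. Interferons act through receptors and transcription factors that bind an element in the promoters of antiviral genes. Of 49 tested genes 38 fell and 0 rose in edgeR's test (40 and 0 at an unadjusted p under 0.05, 41 and 0 in DESeq2). The share that fell was 77.6%, beside 20.1% of all genes. The median was -1.22, and 30 to 41 fell in the alternatives. Isg15, a ubiquitin-like protein joined to others during the response, stood at 20.3, 14.7 and 40.7 CPM in CD43++ckit+ and 267, 338 and 273 CPM in CD43+ckit- (log2 fold change -3.54 ± 0.38 SE, adjusted p = 0.00039). Ifit1, which binds viral RNA, stood at 5.43, 4.79 and 13.8 CPM in CD43++ckit+ and 128, 106 and 98.8 CPM in CD43+ckit- (log2 fold change -3.78 ± 0.45 SE, adjusted p = 0.00049), and Irf7, the factor that amplifies type I interferon, at 32.95, 31.2 and 81.3 CPM in CD43++ckit+ and 501, 421 and 318 CPM in CD43+ckit- (log2 fold change -3.09 ± 0.42 SE, adjusted p = 0.000788). For each of the 3 genes the highest CD43++ckit+ library was below the lowest CD43+ckit- library, and without CD43++ckit+ library 3 the values were -4.06, -4.44 and -3.69. Ifi27l2a (-3.26), Oas3, which makes the second messenger of RNase L (-2.52), and Xaf1 (-2.28) fell as well. Summed over the list, levels were 2143, 2150 and 2877 CPM in CD43++ckit+ and 7797, 7313 and 6602 CPM in CD43+ckit-.

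The core of the interferon element is GAAA followed, after any 2 bases, by GAAA again. It occurred on either strand in 3.99% of the 27025 RefSeq promoters and in 3.89% of the 9992 of tested genes. Promoters were matched for 35 of 49 interferon genes, under 80%, so no share over the list is given. Windows of 3 members that hold it, chosen after their values were seen, are shown to give the letters behind the list, read along the strand of the gene, with the element in capitals, also where it lies on the opposite strand and is read as its complement.
Isg15, chr4:156200830-156200929, minus strand: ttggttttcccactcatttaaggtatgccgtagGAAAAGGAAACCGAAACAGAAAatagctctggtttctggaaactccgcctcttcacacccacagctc
Ifit1, chr19:34640759-34640858, plus strand: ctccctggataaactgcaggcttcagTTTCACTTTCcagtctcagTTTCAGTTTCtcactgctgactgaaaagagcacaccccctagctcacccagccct
Oas3, chr5:120777680-120777779, minus strand: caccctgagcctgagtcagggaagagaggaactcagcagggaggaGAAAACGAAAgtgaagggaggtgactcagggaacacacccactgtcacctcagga
The Isg15 window holds 3 overlapping copies, that of Ifit1 holds 2 and that of Oas3 holds 1. No binding was measured.

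Genes of MHC class I presentation, many of which interferon also controls, moved both ways. Of 21 tested, 5 rose (23.8%) and 8 fell (38.1%), 61.9% called in all beside 39.8% of all genes, but 7 and 5 with library totals, and 4 or 5 fell without CD43++ckit+ library 1 or 2 or CD43+ckit- library 1 or 3. H2-D1, a classical class I heavy chain, stood at 134, 111 and 128 CPM in CD43++ckit+ and 306, 288 and 249.6 CPM in CD43+ckit- (log2 fold change -1.18 ± 0.16 SE, adjusted p = 0.000803). H2-Q4 (-1.28), H2-T23 (-1.18) and Tapbp, the loading chaperone tapasin (-0.65), fell, and Canx, the chaperone calnexin, rose by 0.92. Of 3 immunoproteasome genes, named after their values were seen, Psmb8 rose, at 93.4, 87.5 and 82.6 CPM in CD43++ckit+ and 14.4, 36.05 and 28.9 CPM in CD43+ckit- (log2 fold change 1.73 ± 0.39 SE, adjusted p = 0.00692). Psmb9 rose by 0.63 (adjusted p = 0.0477, close to the limit), and Psmb10 was not called (0.45, adjusted p = 0.109). Class I heavy chain genes are near-identical in part, so reads may be assigned among them wrongly.

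MYC drives ribosome production and growth, and MXD proteins oppose it by taking up its partner MAX. Myc stood at 201, 197 and 153 CPM in CD43++ckit+ and 20.8, 42.6 and 37.4 CPM in CD43+ckit- (log2 fold change 2.45 ± 0.37 SE, adjusted p = 0.00117), 5.46-fold higher, with no overlap. Of its opponents, Mxd1 fell, at 50.6, 47.8 and 110 CPM in CD43++ckit+ and 320, 436 and 368 CPM in CD43+ckit- (log2 fold change -2.43 ± 0.34 SE, adjusted p = 0.000855), as did Mxd4 by 1.64 and Mxi1 by 1.30. Mga and Mnt, which also pair with MAX and are named after their values were seen, did not follow. Mga rose, at 68.3, 77.03 and 32.6 CPM in CD43++ckit+ and 28.2, 15.9 and 21.96 CPM in CD43+ckit- (log2 fold change 1.43 ± 0.32 SE, adjusted p = 0.0072), and Mnt was not called, at 41.4, 48.8 and 49.8 CPM in CD43++ckit+ and 43.7, 54.5 and 49.5 CPM in CD43+ckit- (log2 fold change -0.08 ± 0.14 SE, adjusted p = 0.695). Bin1, a MYC-interacting adaptor, rose by 2.58. Of 14 tested members of the network 4 rose (28.6%) and 5 fell (35.7%), beside 19.7% and 20.1% of all genes. With library totals, or without CD43++ckit+ library 1 or CD43+ckit- library 2, 3 fell.

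Ribosome biogenesis genes had the largest share of rising members among the 43 lists. Of 70 tested, 60 rose and 0 fell in edgeR's test (62 and 0 at an unadjusted p under 0.05, 60 and 0 in DESeq2), beside 19.7% of all genes, with a median of 1.28, and 49 to 65 rose in the alternatives. Npm1, nucleophosmin of the nucleolus, stood at 682, 754 and 453 CPM in CD43++ckit+ and 199, 159 and 205 CPM in CD43+ckit- (log2 fold change 1.75 ± 0.24 SE, adjusted p = 0.000802), and Ncl, nucleolin, at 784, 811 and 428 CPM in CD43++ckit+ and 268, 166 and 238 CPM in CD43+ckit- (log2 fold change 1.59 ± 0.26 SE, adjusted p = 0.00171). Rrp1b, a processing factor of the large subunit, stood at 54.1, 48.5 and 27.6 CPM in CD43++ckit+ and 3.09, 5.97 and 7.76 CPM in CD43+ckit- (log2 fold change 2.95 ± 0.38 SE, adjusted p = 0.000639). CD43++ckit+ library 3 was the lowest of its population for the 3 genes and still above each CD43+ckit- library. Polr1b, the second subunit of RNA polymerase I (2.09), the assembly factor gene Rrs1 (2.12), the small-subunit factor genes Wdr43 (2.03) and Utp15 (1.61), and the rRNA methylation genes Nop2 (1.64), Nop56 (1.29) and Fbl (1.13) rose. Summed levels were 8239, 8015 and 5668 CPM against 2804, 3082 and 3342 CPM. The E-box CACGTG, which MYC and MAX bind, occurred in 11 of the 63 matched promoters of this list (17.5%), in 11.6% of the 9992 promoters of tested genes, in 15.1% of those of genes called higher and in 8.09% of all 27025 RefSeq promoters; a match is a description of the letters only.

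Of 35 purine and pyrimidine synthesis genes 23 rose (65.7%, beside 19.7% of all genes) and 3 fell (median 0.76), 14 or 15 rising without CD43++ckit+ library 1 or 2 or CD43+ckit- library 3. Ppat, the first committed enzyme of purine synthesis (1.33), Cad, which starts pyrimidine synthesis (1.29), Prps2 (1.69), Ctps (1.46) and Adss (0.92) rose. So did both genes for the rate-limiting enzyme of guanine nucleotides. Impdh1 stood at 66.3, 66.2 and 67.5 CPM in CD43++ckit+ and 14.96, 22.7 and 22.1 CPM in CD43+ckit- (log2 fold change 1.74 ± 0.27 SE, adjusted p = 0.00135). The more abundant Impdh2 rose less, at 276, 278 and 269 CPM in CD43++ckit+ and 146, 183 and 173 CPM in CD43+ckit- (log2 fold change 0.71 ± 0.20 SE, adjusted p = 0.0191). Dck, which salvages deoxynucleosides, fell by 1.19. Among 26 serine, folate and one-carbon enzymes 11 rose (42.3%, beside 19.7% of all genes) and 2 fell (7.69%, beside 20.1%). Phgdh, the first step of serine synthesis, stood at 40.4, 50.4 and 56.4 CPM in CD43++ckit+ and 7.63, 16.2 and 14.8 CPM in CD43+ckit- (log2 fold change 1.93 ± 0.37 SE, adjusted p = 0.0033), and Psat1 of the next step (1.58), the serine transporter gene Sfxn1 (1.23), Shmt1 (2.02), Fpgs (1.48) and Mat2a (1.01) rose with it.

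Enzymes that charge tRNAs rose in 10 of 23 cases (43.5%, beside 19.7% of all genes) and fell in 1, with 6 rising without CD43++ckit+ library 1. Rars for arginine (log2 fold change 1.18 ± 0.20 SE, adjusted p = 0.00176), Kars for lysine (0.90) and Eprs for glutamate and proline (0.89) were among them. Chaperones that fold new and mitochondrial proteins rose in 23 of 31 cases (74.2%, beside 19.7% of all genes) and fell in 1 (median 0.83). Without CD43++ckit+ library 1 or 2 or CD43+ckit- library 1, 13 to 15 rose. Hspd1, the mitochondrial HSP60, stood at 420.2, 378 and 226 CPM in CD43++ckit+ and 80.3, 83.0 and 106 CPM in CD43+ckit- (log2 fold change 1.92 ± 0.24 SE, adjusted p = 0.000578). The mitochondrial chaperone gene Hspa9 (1.81), Hsp90aa1 (1.94), the ribosome-associated Dnajc2 (1.99), Fkbp4 (1.27) and the chaperonin subunit gene Cct6a (1.17) rose. The summed level of the list was 15330, 12450 and 8193 CPM in CD43++ckit+ and 7053, 6034 and 6523 CPM in CD43+ckit-, with library 3 the lowest of CD43++ckit+.

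Of 24 amino acid transporter genes 10 fell (41.7%, beside 20.1% of all genes) and 4 rose. Slc6a9, which brings in glycine, the substrate of haem synthesis, stood at 67.02, 61.3 and 90.1 CPM in CD43++ckit+ and 587, 572 and 453 CPM in CD43+ckit- (log2 fold change -2.88 ± 0.24 SE, adjusted p = 0.000292). Slc25a39, a mitochondrial carrier (-1.86), Slc43a1 (-1.76), Slc38a5 (-1.53), the glutamine transporter gene Slc1a5 (-0.87) and the heavy chain gene Slc3a2 (-0.67) fell. Slc7a8, a light chain for neutral amino acids, rose, at 6.195, 4.21 and 5.16 CPM in CD43++ckit+ and 0.437, 0.905 and 0.609 CPM in CD43+ckit- (log2 fold change 2.99 ± 0.34 SE, adjusted p = 0.000446).

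Of 39 glycolysis and pentose phosphate genes 12 rose (30.8%, beside 19.7% of all genes) and 8 fell (20.5%, beside 20.1% of all genes). The glucose transporter gene Slc2a1 fell, at 112, 79.1 and 136 CPM in CD43++ckit+ and 723, 1601 and 1081 CPM in CD43+ckit- (log2 fold change -3.38 ± 0.34 SE, adjusted p = 0.000342). Of 2 further transporter genes, named after their values were seen, Slc2a4 also fell (adjusted p = 0.00269). Slc2a3 was not called, at 199, 158 and 94.6 CPM in CD43++ckit+ and 52.6, 90.2 and 93.9 CPM in CD43+ckit- (log2 fold change 0.93 ± 0.36 SE, adjusted p = 0.0703). Its ranges did not overlap, and it was called higher with library totals. Uptake of glucose was not measured. The pyruvate dehydrogenase kinase gene Pdk2 (-2.14) and Taldo1 (-0.84) fell. Hk2, which traps glucose in the cell, rose, at 55.6, 39.5 and 46.6 CPM in CD43++ckit+ and 4.77, 15.5 and 14.5 CPM in CD43+ckit- (log2 fold change 2.03 ± 0.48 SE, adjusted p = 0.00998), as did Ldha, which makes lactate (1.69), and Pfkfb3, which speeds phosphofructokinase (2.26). Of 50 genes for oxidative phosphorylation and the TCA cycle 11 rose (22%) and 7 fell (14%), beside 19.7% and 20.1% of all genes. With library totals 16 rose and 2 fell, and without CD43++ckit+ library 1 or 2 or CD43+ckit- library 1, 6 or 7 rose and 4 to 6 fell. Ppargc1b, a coactivator of mitochondrial genes (2.39), Ndufaf4, which assembles complex I (1.75), Idh3a of the TCA cycle (1.47), Tfam, which maintains mitochondrial DNA (1.24), and cytochrome c, Cycs (0.82), rose. Of 33 cholesterol genes 4 rose (12.1%) and 5 fell (15.2%), both below the 19.7% and 20.1% of all genes. Without CD43++ckit+ library 1, 0 rose, and 1 rose without its library 2 or without CD43+ckit- library 1. Mylip, the ligase that degrades the LDL receptor, fell by 1.78.

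D cyclin genes moved in opposite directions, while few genes of replication and mitosis were called. Cyclin D3 is the D cyclin of red cell precursors and cyclin D2 that of stem and progenitor cells. Ccnd3 stood at 169, 149 and 244 CPM in CD43++ckit+ and 1188, 1079 and 824 CPM in CD43+ckit- (log2 fold change -2.46 ± 0.24 SE, adjusted p = 0.000326). Ccnd2 stood at 677, 668 and 339.9 CPM in CD43++ckit+ and 186, 217 and 239 CPM in CD43+ckit- (log2 fold change 1.39 ± 0.26 SE, adjusted p = 0.00284), and Cdk6, a kinase partner of D cyclins, at 62.5, 74.7 and 44.03 CPM in CD43++ckit+ and 7.43, 11.6 and 13.7 CPM in CD43+ckit- (log2 fold change 2.47 ± 0.30 SE, adjusted p = 0.000555). Thus Ccnd3 was lower in every CD43++ckit+ library, and Ccnd2 and Cdk6 were higher. Cdkn1b, the inhibitor p27, stood at 81.9, 82.6 and 89.1 CPM in CD43++ckit+ and 273, 278 and 285 CPM in CD43+ckit- (log2 fold change -1.72 ± 0.18 SE, adjusted p = 0.000342), and the antiproliferative gene Btg2 fell by 2.18. E2f3 rose by 1.10. Of 38 genes for cyclins, CDKs, inhibitors, RB and E2F 13 rose (34.2%) and 14 fell (36.8%), beside 19.7% and 20.1% of all genes. Without CD43++ckit+ library 1 or CD43+ckit- library 1 or 2, 7 or 8 rose.

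Among 42 DNA replication genes 0 rose and 2 fell in edgeR's test (2 and 2 at an unadjusted p under 0.05, 1 and 3 in DESeq2). The 4.76% that fell was below the 20.1% of all genes. With library totals 3 rose and 0 fell. Without CD43++ckit+ library 1 or 2 or CD43+ckit- library 1, 1 fell. Those that fell under TMM were Fen1, which trims Okazaki fragments (-0.49), and Gins4 of the replicative helicase (-0.46), and neither was called with library totals; Fen1 also lost its call without CD43++ckit+ library 1, and Gins4 without CD43++ckit+ library 2 or CD43+ckit- library 1. Of 47 mitosis genes 0 rose and 8 fell (2 and 10 unadjusted, 0 and 11 in DESeq2). The 17% that fell was near the 20.1% of all genes. With library totals 3 fell and 2 rose, and 5 fell without CD43++ckit+ library 1 or 2 or CD43+ckit- library 2. Cdc25b, a phosphatase that triggers mitosis, stood at 727, 713 and 781 CPM in CD43++ckit+ and 3137, 3366 and 2720 CPM in CD43+ckit- (log2 fold change -2.05 ± 0.23 SE, adjusted p = 0.000406), and Pttg1, securin (-1.18), and Ube2c, of the anaphase-promoting pathway (-1.06), fell as well.

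Survival genes of the BCL2 family moved in opposite directions too. BCL-XL, from Bcl2l1, protects red cell precursors downstream of the erythropoietin receptor, and BCL2 protects progenitors and lymphocytes. Bcl2l1 stood at 88.4, 70.7 and 87.3 CPM in CD43++ckit+ and 338, 547 and 389.9 CPM in CD43+ckit- (log2 fold change -2.37 ± 0.25 SE, adjusted p = 0.00039). Bcl2 stood at 9.93, 10.3 and 8.02 CPM in CD43++ckit+ and 0.471, 1.51 and 1.86 CPM in CD43+ckit- (log2 fold change 2.87 ± 0.51 SE, adjusted p = 0.00252). The directions were opposite and neither gene overlapped between populations. Mcl1, a further survival gene (-0.89), the killer gene Bbc3 (-2.15) and Casp9, the initiator caspase (-1.07), fell. Of 27 members 4 rose (14.8%) and 9 fell (33.3%), beside 19.7% and 20.1% of all genes. With library totals 7 rose and 6 fell, and 5 fell without CD43++ckit+ library 2.

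Of 32 genes for p53 and its targets 9 fell (28.1%, beside 20.1% of all genes) and 2 rose, but 6 fell and 8 rose with library totals, so the balance depended on the scaling; 1 rose without CD43+ckit- library 1 and 4 without CD43++ckit+ library 3. Bbc3, Trp53inp1 (-1.79) and the sestrin genes Sesn2 (-1.69) and Sesn1 (-1.31), which restrain growth under stress, fell. In the integrated stress response, kinases slow translation and raise ATF4, and in red cell precursors the kinase HRI (Eif2ak1) does so when haem is short. Eif2ak1 stood at 146, 140.4 and 162 CPM in CD43++ckit+ and 548, 564 and 531 CPM in CD43+ckit- (log2 fold change -1.87 ± 0.18 SE, adjusted p = 0.000326). Atf4 stood at 206, 182 and 168 CPM in CD43++ckit+ and 398, 392 and 378 CPM in CD43+ckit- (log2 fold change -1.07 ± 0.18 SE, adjusted p = 0.00177) and its target Ddit3 at 26.1, 19.7 and 24.2 CPM in CD43++ckit+ and 110.4, 63.1 and 68.6 CPM in CD43+ckit- (log2 fold change -1.79 ± 0.26 SE, adjusted p = 0.00102). Ppp1r15a, which ends the response by dephosphorylating its target (-3.02), Trib3 (-1.71) and Atf5 (-1.54) fell, while Asns, another target, was not called (log2 fold change 0.08 ± 0.12 SE, adjusted p = 0.653). Of 26 members 8 fell (30.8%, beside 20.1% of all genes) and 1 rose (3.85%, beside 19.7%). Without CD43++ckit+ library 1 or 2 or CD43+ckit- library 2 or 3, 0 rose.

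The list for DNA and histone methylation also held other genes, among them deacetylase genes, Idh1 and Idh2. Of its 42 members 11 rose (26.2%) and 8 fell (19%), near the shares over all genes (19.7% higher and 20.1% lower). Without CD43++ckit+ library 1 or 2, 6 rose. Dnmt3a, a de novo DNA methyltransferase often mutated in myeloid leukaemia, stood at 38.4, 45.4 and 32.8 CPM in CD43++ckit+ and 17.1, 16.7 and 18.1 CPM in CD43+ckit- (log2 fold change 1.17 ± 0.17 SE, adjusted p = 0.00109). Kdm7a (-1.72) and Kdm4a (-0.999), histone demethylases, and the deacetylase genes Hdac5 (-1.64) and Hdac11 (-1.09) fell.

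Lysosomal genes fell in 12 of 40 cases (30%, beside 20.1% of all genes) and rose in 6, 18 falling without CD43++ckit+ library 3, 8 falling with library totals, and 2 or 3 rising without CD43++ckit+ library 1 or 2 or any 1 of the CD43+ckit- libraries. Ctsb, cathepsin B, stood at 334, 312 and 410.4 CPM in CD43++ckit+ and 1509, 1443 and 1245 CPM in CD43+ckit- (log2 fold change -1.99 ± 0.19 SE, adjusted p = 0.000326), and cathepsin D, Ctsd (-0.98), the proton pump genes Atp6v0d1 (-1.32) and Atp6ap1 (-1.01), and Npc1, which exports cholesterol from lysosomes (-0.88), fell.

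Of 36 adhesion genes 5 rose (13.9%) and 6 fell (16.7%), both below the shares over all genes (19.7% higher and 20.1% lower; 19 falling without CD43++ckit+ library 3). Cd24a, a small sialylated surface protein of red cell precursors and B cells, stood at 612, 535 and 583 CPM in CD43++ckit+ and 2727, 2124 and 2228 CPM in CD43+ckit- (log2 fold change -2.03 ± 0.20 SE, adjusted p = 0.000342). The tetraspanin gene Cd82 (-1.60), Adgrg1, a receptor of stem and progenitor cells (-1.33), and Itgb7 (-1.23) fell. Icam2 rose, at 83.1, 76.02 and 51.8 CPM in CD43++ckit+ and 11.3, 17.1 and 18.8 CPM in CD43+ckit- (log2 fold change 2.16 ± 0.32 SE, adjusted p = 0.00106), as did Itgb1, the beta 1 integrin that binds fibronectin in the marrow (0.84).

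**Figure D5:**
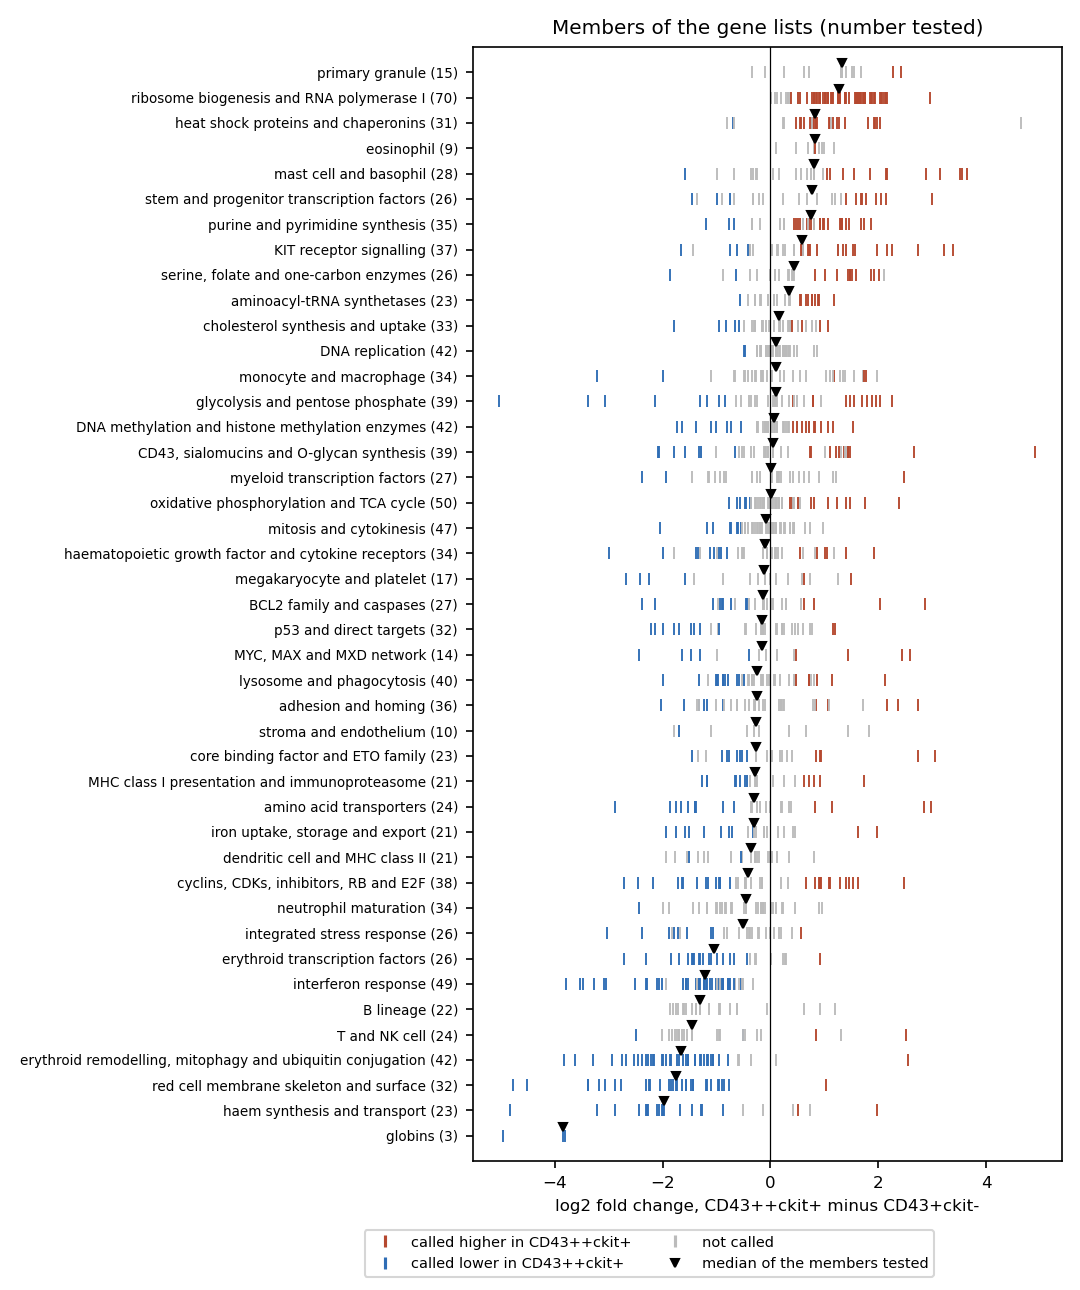
Log2 fold change (CD43++ckit+ minus CD43+ckit-) of every tested member of 43 gene lists, 1 tick a gene, coloured by call, with a black triangle at the median and the number tested beside the name. Globin, haem and red cell membrane genes lie lowest, with medians of -1.97 for haem and -1.75 for red cell membrane genes, and ribosome biogenesis genes lie near the top at 1.28.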

How the data were processed

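Per the labels' protocols, Trizol RNA of bone marrow cells went into Illumina TruSeq libraries. The values used are whole-number read counts per mouse gene symbol, as deposited by the authors. The tools named, with no role, per the submitters' processing notes are HTSeq, RSEM, edgeR, CASAVA 1.8 and TopHat2 2.0.4. Those notes name a human genome build. What build and annotation the mouse counts rest on, and how strand was handled, is not given in the sources used here. Counts of genes with near-identical copies, overlapping or antisense partners are therefore uncertain, and no gene coordinates are given from the counts. Promoter sequences and their coordinates come from RefSeq (GRCm38.p6).

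Of 24391 rows, 6162 were 0 throughout and 27 carried dates in place of symbols; these date rows were fitted but are left unnamed. edgeR 4.0.16 (R 4.3.3) kept 12573 genes (filterByExpr, minimum count 10, minimum total 15), scaled them by TMM, and fitted 3 group means to all 9 libraries by robust quasi-likelihood. The SE is the size of the log2 fold change over the square root of F. Each library was counted as 1 sample. Counts within each pair of libraries of a population differed by more than sampling allows (chi-square 16 to 124.8 times its degrees of freedom). That spread does not show whether the libraries came from separate mice.

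Named genes were Kit, Spn, the 12 largest changes each way (average log2 CPM over the 9 libraries of at least 4, no overlap), and from each of 43 lists its key members and the 5 smallest adjusted p at an average log2 CPM of at least 1; exceptions are marked, and some genes that met this rule are not reported here. Members and lists were chosen with earlier results of these data known. The 17 alternatives changed scaling, filter, tool (DESeq2 1.42.0), libraries or block, and 1 was added after seeing the data.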

Additional observations from a re-analysis of the deposited data

How the results depend on the processing

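Over the 17 alternatives the number of called genes ranged from 3493 to 5919, and 3004 of the 5005 kept their call in each of them. The number called higher lay between 1607 (without CD43++ckit+ library 1) and 2935 (without CD43++ckit+ library 3) when a single library was left out. With CD43++ckit+ library 3 and library 1 of the other populations left out together, chosen after seeing the data, 8557 genes were called, 4376 higher and 4181 lower, 4296 at 2-fold or more. Library totals gave 3511 higher and 1733 lower calls and the DESeq2 Wald test 2577 and 3057. Replicate numbers were not taken as pairs. Deviations of same-numbered libraries correlated at 0.447, -0.617 and 0.382, and not every library correlated best with its own number. With 3 libraries a population these values cannot show whether same-numbered libraries were paired, so pairing is unknown. With the replicate number as a block 4090 genes were called in the 6 libraries and 4804 in all 9. Kit and Spn kept their call throughout. Genes without a call that changed sign were Alas1 (-0.24 without CD43++ckit+ library 3 to 1.07 when single libraries were left out, and -0.45 with the 3 libraries left out), Hoxa9 (-0.31 with the 3 left out), Mnt (-0.159 to 0.052 when single libraries were left out, 0.192 with library totals), Mpo (-1.75 to 1.96 when single libraries were left out, -0.42 with the block in 6 libraries, -1.94 with the 3 left out) and S100a8 (-3.33 to 0.30 when single libraries were left out, 0.072 with library totals); the cause was not tested. The groups of 3 were too small to test single libraries as outliers, and 18.1% of genes under an average log2 CPM of 1 in the 6 compared libraries were called against 55.7% at 7 and over.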
